A study of Microcebus murinus with 18 samples.

Results

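The immediate early genes examined were FOS, FOSB, JUN, JUNB, EGR1, EGR2, EGR3, ARC, NR4A1 and IER2, measured in the temporal cortex of the grey mouse lemur (Microcebus murinus), a small prosimian primate. All probe sets of the human HG-U133 Plus 2.0 array that the probe table assigns to 1 of these 10 symbols were taken. The table holds 16 such probe sets for 9 of the 10 genes, of 19775 genes with a symbol of their own. EGR2 has no probe set in the table and has no value here. The study compared 6 young adult animals, of which 2 were males, with 10 healthy old animals, of which 3 were males, and with 2 old females called AD-like. Each animal gave 1 array. The AD-like animals were classed by their histology, with amyloid plaques and a thinned cortex, and both are females, so their group holds no male. The labels give age only as these categories and name no transgene or treatment. Animals are named by group, sex and number, as in old F1.

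Immediate early genes are transcribed within minutes of a stimulus such as neuronal firing, without the need for new protein synthesis, and their mRNAs are short-lived. Most encode transcription factors. FOS, FOSB, JUN and JUNB proteins pair with each other to form AP-1, the EGR proteins are zinc finger factors, and NR4A1 is an orphan nuclear receptor, while ARC acts at the synapse. In the cerebral cortex they are widely used as markers of recently active neurons.

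Values are linear signals scaled by the authors to the same trimmed mean on every array, and the probes are human while the RNA is from a lemur, so a signal also depends on how well a probe matches the lemur transcript. Signals of different genes were therefore not compared with each other, and where a gene had several probe sets their signals served only to choose the brightest. A probe set was kept for testing where its signal was at least 150 on at least 3 arrays of any group, which held for 14567 of the 54613 probe sets that are not controls. Of the 16 probe sets of immediate early genes 11 were kept, for 7 genes. Poly-A control RNA is added to a sample before labelling, and 4 arrays had almost none, namely AD-like F2, young adult M2 and the old males M1 and M2. Their signal of the dap control was 7.30 to 47.3, against 421 to 4185 on the other 14 arrays. Of 5 excitatory neuron markers 4 were on the table and kept (SLC17A7, NRGN, CAMK2A and NEUROD6), with a summed signal of 4445 to 12462 over the 18 arrays. Of 7 markers of all neurons 6 were kept. Their summed signal was 14212 to 59761 in young adults, 33434 to 60157 in old animals and 22088 to 52486 in the AD-like pair. The same sum was 22088 to 60157 in females and 14212 to 39221 in males, and its part in the results was not tested. Of 6 astrocyte markers 5 were kept, GFAP not among them, and of 6 microglia markers 2 were kept, without CX3CR1, AIF1, CSF1R and C1QB. Of 3 choroid plexus markers TTR and FOLR1 were kept, and their summed signal ran from 1434 to 25368 in young adults, from 1009 to 19751 in old animals and from 3941 to 4529.6 in the AD-like pair. The part of this tissue in the results was not tested. In whole tissue, fewer cells of a type and less RNA per cell cannot be told apart.

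FOS, the best known partner of JUN in AP-1, had the widest spread of these genes between animals. Its signal (209189_at) was 99.3 to 2049.5 (median 948) in the 6 young adult animals and 191 to 1705 (median 610.0) in the 10 old animals, and it was 594 and 55.4 in AD-like F1 and F2. The lowest young adult value came from M2, and both this animal and AD-like F2 were on arrays that had almost no poly-A control. As mean signals this gave 1003 ± 660.3 (SD, n = 6) for young adults, 791 ± 564 (SD, n = 10) for old animals and 325 ± 381 (SD, n = 2) for the AD-like pair, and the 3 groups overlapped. Within groups the SD of the FOS log2 signal was 1.34 against a median of 0.62 over all kept probe sets, and 99.6% of these had a smaller one. FOSB, the closest relative of FOS, was low on every array (202768_at, 4.05 to 95.3) and was not kept.

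JUNB, an AP-1 subunit that is itself quickly induced, had a signal (201473_at) that was 168 to 571 (median 379.7) in the 6 young adult animals and 177 to 905 (median 296) in the 10 old animals, and it was 193 and 151 in AD-like F1 and F2. The highest value was that of old F1, and the 2 AD-like values lay at the low end of the old range, with AD-like F2 below all other animals. The mean signals were 386 ± 134 (SD, n = 6) for young adults, 379.8 ± 223 (SD, n = 10) for old animals and 172 ± 29.6 (SD, n = 2) for the AD-like pair. JUN, the main partner of FOS, is represented by 4 probe sets, of which 3 were kept. The brightest (201464_x_at) was 1836 to 3689.6 (median 2429) in the 6 young adult animals and 1648 to 5167 (median 2735) in the 10 old animals, and it was 2359.6 and 1446 in AD-like F1 and F2. Another (201465_s_at) was 246 to 562 (median 423) in the 6 young adult animals and 75.2 to 637 (median 334) in the 10 old animals, and it was 373 and 191 in AD-like F1 and F2, and its 3 lowest animals were the 3 old males. The third (213281_at) was 134 to 377 (median 219.9) in the 6 young adult animals and 143 to 422 (median 294) in the 10 old animals, and it was 252 and 157 in AD-like F1 and F2. The fourth (201466_s_at) stayed between 1.14 and 86.1 and was not kept. The first 2 of these JUN probe sets rose and fell together within groups (r = 0.74, permutation p = 0.0019, adjusted p = 0.0114 over 6 pairs of probe sets of the same gene), but with quantile normalization r was 0.36 (adjusted p = 0.293).

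EGR1, a zinc finger factor that is also known as ZIF268, is represented by 3 probe sets, all kept. The brightest (227404_s_at) was 1291 to 15227 (median 7991) in the 6 young adult animals and 2093 to 11083 (median 5838) in the 10 old animals, and it was 3006 and 4359 in AD-like F1 and F2. The lowest animals were young adult M2, old M1 and old M2, all males on arrays without poly-A control RNA. The mean signals were 8080.2 ± 5083 (SD, n = 6) for young adults, 6271 ± 3345 (SD, n = 10) for old animals and 3683 ± 957 (SD, n = 2) for the AD-like pair. A further probe set (201694_s_at) was 1008 to 7005 (median 5831) in the 6 young adult animals and 2533 to 8532 (median 3654) in the 10 old animals, and it was 4128 and 1671 in AD-like F1 and F2. Young adult M2 was again the lowest of the 18 animals. The third (201693_s_at) was 177 to 493 (median 323) in the 6 young adult animals and 265 to 842 (median 401) in the 10 old animals, and it was 303 and 327 in AD-like F1 and F2, and there M2 was not the lowest of the young adults. These probe sets differed in how they ranked the animals, since r within groups was 0.59 for the first pair (permutation p = 0.0366, adjusted p = 0.11) and -0.09 between 201693_s_at and 227404_s_at (permutation p = 0.756).

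EGR3, a relative of EGR1 that neuronal activity also induces, had a signal (206115_at) that was 911 to 3006 (median 1765) in the 6 young adult animals and 1001 to 3252 (median 1915) in the 10 old animals, and it was 2150.5 and 1464 in AD-like F1 and F2. The 5 lowest of the 18 animals were the 5 males. The mean signals were 1750.4 ± 789 (SD, n = 6) for young adults, 1906 ± 689.9 (SD, n = 10) for old animals and 1807 ± 486 (SD, n = 2) for the AD-like pair, so the 3 group means lay within 1 SD of each other.

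IER2, a nuclear protein of the early response, had a signal (202081_at) that was 69.8 to 221 (median 141) in the 6 young adult animals and 65.2 to 196 (median 142) in the 10 old animals, and it was 165 and 193 in AD-like F1 and F2. NR4A1, an orphan nuclear receptor also known as NUR77, had a signal (210226_at) that was 31.3 to 168 (median 74.0) in the 6 young adult animals and 27.4 to 307 (median 96.5) in the 10 old animals, and it was 46.2 and 39.7 in AD-like F1 and F2, and it reached 150 on only 3 arrays, those of young adult M1, old F7 and old M2. Its other 2 probe sets were not kept, although 202340_x_at reached 364 in young adult F3. ARC, which encodes a protein of active synapses, was read by a single probe set (210090_at) with signals of 3.45 to 38.2. The signals of FOSB and ARC were too low on these arrays to compare animals. The plot of signals by group shows 8 of the kept probe sets.

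**Figure D1:**
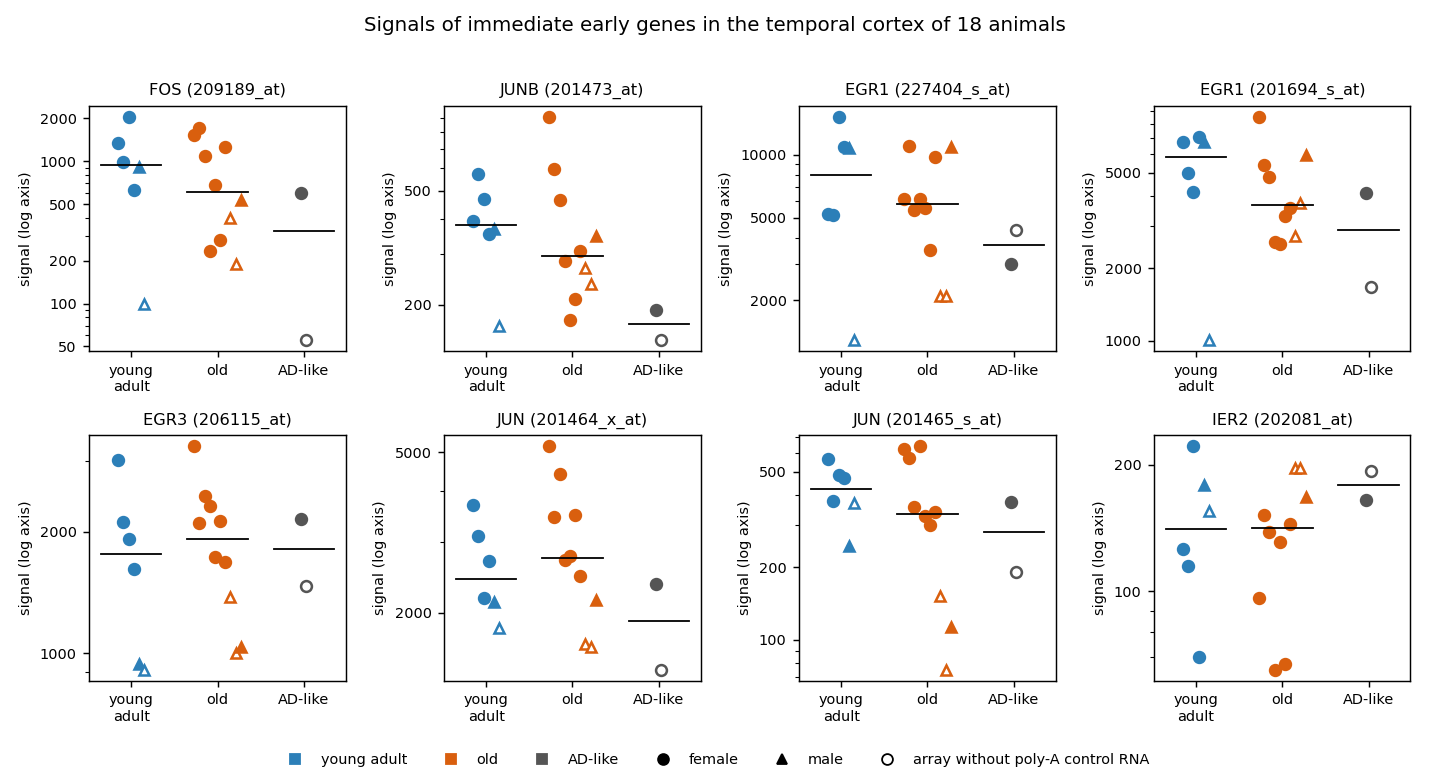
Linear signal (log axis) of 8 probe sets of immediate early genes in each of the 18 animals, by group; circles are females, triangles males, open symbols the 4 arrays lacking the poly-A control, and lines the group medians. The groups overlap for each probe set, the 5 males have the 5 lowest EGR3 signals, and open symbols lie low for FOS.

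The first question was whether healthy aging changes these genes. No immediate early gene passed the test between old and young adult animals. Of the 11 kept probe sets, old animals were higher for 5 and lower for 6, with a median log2 difference of -0.08 against 0.03 over all kept probe sets, where 46.1% were lower. None of the 11 had an adjusted p under 0.05 in limma, nor an unadjusted one, where 5.91% of all kept probe sets did and 0% did after adjustment. The smallest p was that of EGR1 (201693_s_at), with a log2 difference of 0.40 (SE 0.25, limma p = 0.121, adjusted p = 0.856). FOS gave -0.28 (SE 0.61, adjusted p = 0.96), and JUNB gave -0.11 (SE 0.32, adjusted p = 0.972).

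Next, the AD-like animals were compared with the old animals. Of the 11 probe sets 10 had lower means in the AD-like pair, with a median log2 difference of -0.57 against -0.02 over all kept probe sets, of which 51.9% were lower. IER2 alone was higher (0.43, SE 0.40). EGR1 and JUN entered this count with several probe sets each. The pattern depended on AD-like F2. Without that animal 7 were lower and 4 higher, with a median of -0.13 against 0.05 over all kept probe sets. Without AD-like F1 10 were lower and 1 higher, with a median of -0.76. None passed the test, adjusted or not, where 4.84% of all kept probe sets passed at an unadjusted p under 0.05, and 0.00686%, a single probe set, after adjustment. JUNB had the smallest p, with a log2 difference of -0.92 (SE 0.48, limma p = 0.0672, adjusted p = 0.972). FOS had the widest difference, -1.58 (SE 0.91, limma p = 0.0973, adjusted p = 0.972), and this rested on AD-like F2. It was -0.03 (limma adjusted p = 1.00) without that animal and -3.13 (limma p = 0.0136, adjusted p = 0.477) without AD-like F1. The arrays with and without poly-A control RNA were also fitted as a block (the poly-A block), a split made here from the dap signal that no label names. In that fit the FOS difference was -0.92 (limma p = 0.189), and that of JUNB was -0.72 (limma p = 0.124).

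AD-like animals were also set against the young adults, with the same 2 AD-like arrays. Of the 11 probe sets 9 were lower and 2 higher, with a median log2 difference of -0.57 against 0.01 over all kept probe sets, of which 48.7% were lower. Without AD-like F2 8 were lower and 3 higher, with a median of -0.10 against 0.09 over all kept probe sets. Without AD-like F1 9 were lower and 2 higher, with a median of -0.74. None had an unadjusted p under 0.05, where 4.34% of all kept probe sets did and 0% did after adjustment. FOS gave -1.86 (SE 0.96, limma p = 0.0658, adjusted p = 1.00) and JUNB gave -1.03 (SE 0.50, limma p = 0.0538, adjusted p = 1.00). For FOS this became -0.32 when AD-like F2 was left out and -3.41 when F1 was. In both genes the median signal was highest in young adult and lowest in AD-like animals (948, 610.0 and 325 for FOS), and no neighbours in that order differed beyond the spread between animals. The F test over the 3 groups called none of the 11 at an unadjusted p under 0.05 either, against 5.07% of all kept probe sets (0% adjusted). None of the 11 separated a pair of groups without overlap, which 0.0343% of all kept probe sets did for old and young adult, 3.02% for AD-like and old and 5.59% for AD-like and young adult animals. The methods' t-test and analysis of variance on linear signals called none of the 11 in any comparison either, adjusted or not. The plot of group differences gives all 11 with their standard errors.

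**Figure D2:**
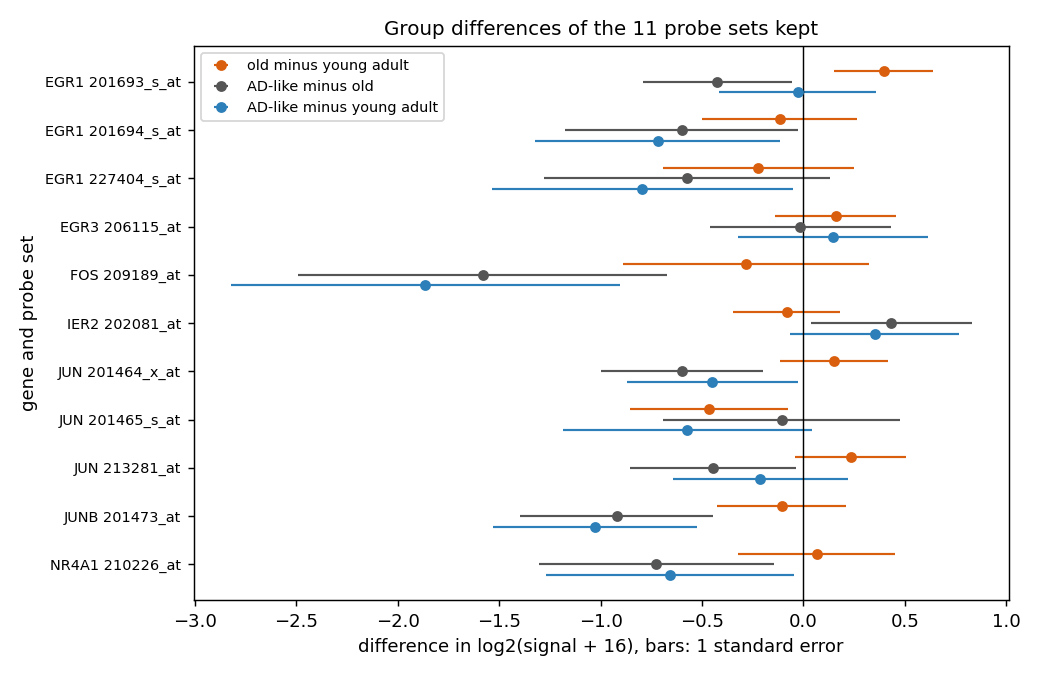
Difference between group means in log2(signal + 16) for the 11 kept probe sets in each of the 3 comparisons, with bars of 1 standard error from limma. In AD-like minus old animals 10 of 11 points lie below 0, FOS farthest at -1.58, and no difference passed the test. In a fit without AD-like F2, 7 of the 11 were below 0.

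Other genes of the same response were examined by lists chosen with earlier results known. Of 8 kept relatives of AP-1, EGR and NR4A, 4 were higher and 4 lower in the AD-like pair than in old animals, and none passed after adjustment. The smallest p was that of JUND, an AP-1 subunit that is less inducible, at -0.94 (SE 0.32, limma p = 0.00835, adjusted p = 0.812). Among 27 other immediate early genes 6 were higher and 21 lower, and the median log2 difference was -0.24 against -0.05 over the 8660 genes kept. GADD45G, a stress-induced gene, was the one call of the list, and it fell by 2.63 on the log2 scale (SE 0.41, limma adjusted p = 0.0374), as the single probe set called in this comparison. Its signal was 21.6 and 16.5 in AD-like F1 and F2 and 104 to 343 in the old animals, without overlap. The adjusted p was 0.0636 with quantile normalization, 0.0579 with the poly-A block, and 0.185 and 0.0659 without AD-like F2 and F1. CCN1, a secreted matrix protein, gave -1.64 (adjusted p = 0.408), and the phosphatase DUSP1, which switches off MAP kinases, gave -1.27 (adjusted p = 0.911). Of 24 regulators upstream 11 were higher and 13 lower, with CRTC2, a CREB coactivator, at -1.93 (adjusted p = 0.695), CRTC3 at -1.07 (adjusted p = 0.911) and CREB1 itself at 0.71 (adjusted p = 0.972). Of 11 activity-regulated effectors, such as BDNF, 5 were higher and 6 lower, and of 7 heat shock genes 5 were higher and 2 lower, with no call. Between old and young adult animals none of these lists held a call, and the smallest p was that of the kinase MAP2K1 (0.67, SE 0.21, adjusted p = 0.836). AD-like against young adult animals gave no call either, with GADD45G at -2.13 (adjusted p = 0.369), DUSP1 at -1.65 (adjusted p = 0.704) and CCN1 at -1.38 (adjusted p = 0.784).

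The genes were then followed from animal to animal, whatever the group. With group means removed, FOS, JUN, JUNB and EGR3, each by its brightest kept probe set, rose and fell together in the signals as deposited. Each of their 6 pairs passed. EGR1 passed with FOS alone, and no pair with NR4A1 or IER2 passed with a positive r. For each gene the brightest kept probe set was taken, which gives 21 pairs over 18 arrays. The median r of the 21 pairs was 0.24, and 8 of the 21 had an r of at least 0.5, as had 7.35% of all pairs of kept probe sets. That share was larger for some of these genes. Of the other kept probe sets 20.6% had an r over 0.5 with JUN, 20.5% with EGR3, 16.5% with FOS and 11.4% with JUNB. It was 6.93% with EGR1, 4.02% with IER2 and 2.64% with NR4A1. With quantile normalization the median was 0.20, and 1 of the 21 reached 0.5, where 5.77% of all pairs did. In 7 pairs the p adjusted over the 21 pairs was under 0.05, all with a positive r. The share of all pairs of kept probe sets that would pass such a test was not worked out, so this count does not set these genes apart. JUN and EGR3 were the closest pair (r = 0.86, rho = 0.88, permutation p = 3e-05 for r and 4e-05 for rho, adjusted p = 0.00063 for r), with r = 0.80 without the 2 animals farthest from the median. FOS and JUNB came next (r = 0.73, rho = 0.79, permutation p = 0.00065 for r and 0.00031 for rho, adjusted p = 0.00682 for r), with r = 0.62 without young adult M2 and old M2. By r with FOS, JUNB was number 328 of 14566 probe sets, and by r with JUNB, FOS was number 116. By r with JUN, EGR3 was number 46, JUNB number 1751 and FOS number 2063. By r with EGR3, JUN was number 57, JUNB number 2112 and FOS number 2129. The other 5 pairs were FOS with JUN (r = 0.60), FOS with EGR1 (r = 0.63), FOS with EGR3 (r = 0.58), JUN with JUNB (r = 0.63) and JUNB with EGR3 (r = 0.58), each with an adjusted p of 0.048. Without the 2 farthest animals r was 0.47, 0.32, 0.38, 0.46 and 0.36 in these pairs, so part of each relation rested on those animals. EGR1 had an r of 0.51 with JUNB (adjusted p = 0.0925), 0.27 with JUN (adjusted p = 0.43) and 0.24 with EGR3 (adjusted p = 0.559). By ranks FOS and EGR1 did not pass (rho = 0.49, adjusted p = 0.084), and the other 4 did, with rho from 0.57 to 0.62 and an adjusted p of 0.0442 each. Ranks also passed 3 pairs with a negative rho, JUN with IER2 (rho = -0.67, adjusted p = 0.0271), EGR3 with NR4A1 (rho = -0.60, adjusted p = 0.0442) and EGR3 with IER2 (rho = -0.61, adjusted p = 0.0442). Their r was -0.54, -0.56 and -0.51, with adjusted p from 0.0584 to 0.0963.

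These relations depended on how the arrays were scaled. With quantile normalization, which gives each array the same distribution of signals, 1 of the 21 pairs passed, FOS and JUNB (r = 0.74, adjusted p = 0.0223), while JUN and EGR3 fell to r = 0.41 (adjusted p = 0.337). Leaving out single animals, 1 to 8 pairs passed, and the count was 1 without young adult M2, where FOS and JUNB had r = 0.63 (adjusted p = 0.0733). Within the 14 arrays with poly-A control RNA, JUN and EGR3 passed (r = 0.83, adjusted p = 0.0103) and FOS and JUNB did not (r = 0.65, adjusted p = 0.215). In the 10 old animals alone r was 0.90 for JUN and EGR3 (permutation p = 0.00059) and 0.71 for FOS and JUNB (permutation p = 0.0193). With both changes, quantile normalization of the 14 arrays, r was 0.56 for FOS and JUNB (permutation p = 0.0867) and 0.34 for JUN and EGR3 (permutation p = 0.262). With sex removed beside the groups r was 0.67 for FOS and JUNB (adjusted p = 0.0231) and 0.67 for JUN and EGR3 (adjusted p = 0.0741).

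**Figure D3:**
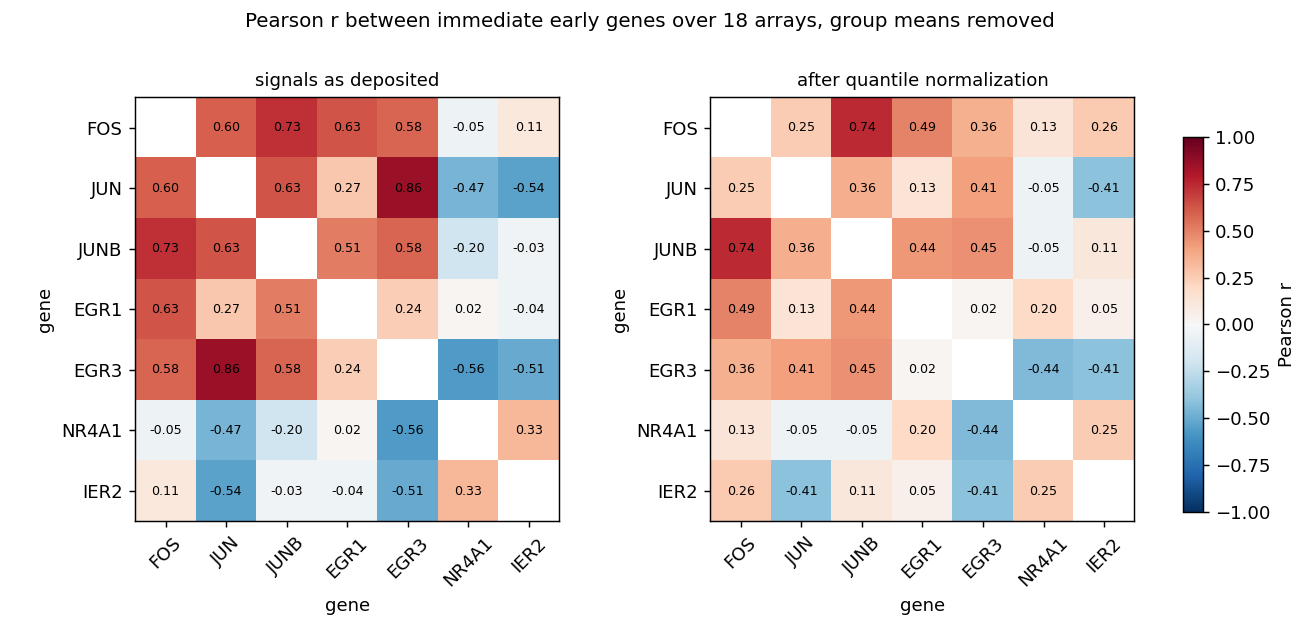
Pearson r between 7 immediate early genes over the 18 arrays after removing group means, for signals as deposited and after quantile normalization; red is positive and blue negative. FOS and JUNB keep an r of 0.73 and 0.74 on both scales, and JUN and EGR3 go from 0.86 to 0.41.

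The same question was put to all probe sets, by fitting the log2 signal of 1 gene as a covariate beside the groups in limma. In 7 of the 42 ordered pairs of the 7 genes, the second gene followed the first with a p adjusted over all kept probe sets under 0.05, all rising. Following FOS were JUNB (slope 0.34, SE 0.09, adjusted p = 0.0354) and EGR1 (227404_s_at, slope 0.48, SE 0.14, adjusted p = 0.04999), where 6.87% of all kept probe sets were called. Following JUN were EGR3 (slope 1.01, SE 0.20, adjusted p = 0.00591), FOS (slope 1.62, adjusted p = 0.0375) and JUNB (slope 0.81, adjusted p = 0.044), where 17.7% were called. Following EGR3 were JUN (slope 0.73, adjusted p = 0.00757) and FOS (slope 1.35, adjusted p = 0.0471), where 15% were called. Other probe sets of JUN and EGR1 differed. JUN 201465_s_at followed EGR3 (limma adjusted p = 0.0062) but not FOS (adjusted p = 0.173) or JUNB (adjusted p = 0.29). JUN 213281_at followed none of EGR3, FOS and JUNB (adjusted p = 0.746, 0.813 and 0.682). EGR1 201694_s_at followed FOS (slope 0.44, adjusted p = 0.0287), and EGR1 201693_s_at did not (slope 0.11, adjusted p = 0.427). JUNB was followed by 0.0275% of all kept probe sets, 4 in number, and none was a member, although FOS came near (slope 1.54, adjusted p = 0.0756). No probe set followed EGR1, NR4A1 or IER2 after adjustment (0% each), while 16.6%, 6.99% and 8.22% did so at an unadjusted p under 0.05. With quantile normalization, within the 14 arrays, or with sex as a covariate, 0 of the 42 ordered pairs passed in limma. In these fits 4, 10 and 9 pairs had an unadjusted p under 0.05, against 22 of the 42 in the fits described first. The share of all kept probe sets at that level in the first fits is given above for EGR1, NR4A1 and IER2. It is not given here for FOS, JUN, JUNB and EGR3, nor for any gene in the alternative fits. The counts at an unadjusted p therefore do not set these genes apart.

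The genes outside the set that were most like its members were named by their r over the 18 arrays, group means removed, as a description without a test. The gene most like JUNB was EGR4, the remaining EGR family member on the relatives list (r = 0.92). EGR4 had signals of 399 to 2204 (median 989) in young adult and 369 to 3014 (median 608) in old animals, and 591 and 215 in AD-like F1 and F2. Old F1 was highest and AD-like F2 lowest for EGR4, as they were for JUNB. The r was 0.90 with quantile normalization, 0.92 within the 14 arrays and 0.91 in the 13 females. EGR4 was also 1 of the 4 probe sets called as following JUNB (slope 1.39, limma adjusted p = 0.00237), with SLC44A1, IVNS1ABP and LUC7L (adjusted p = 0.043 each). FOS was most like SCN8A, a neuronal sodium channel (r = 0.91), NPAS4, a transcription factor induced by neuronal activity (r = 0.90), and MED23, a Mediator subunit (r = 0.90). NPAS4 ran from 74.7 in young adult M2 to 1099 in young adult F3, the same animals that were lowest and highest for FOS among the young adults. With quantile normalization the r of FOS and NPAS4 was 0.91, and within the 14 arrays it was 0.79.

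**Figure D4:**
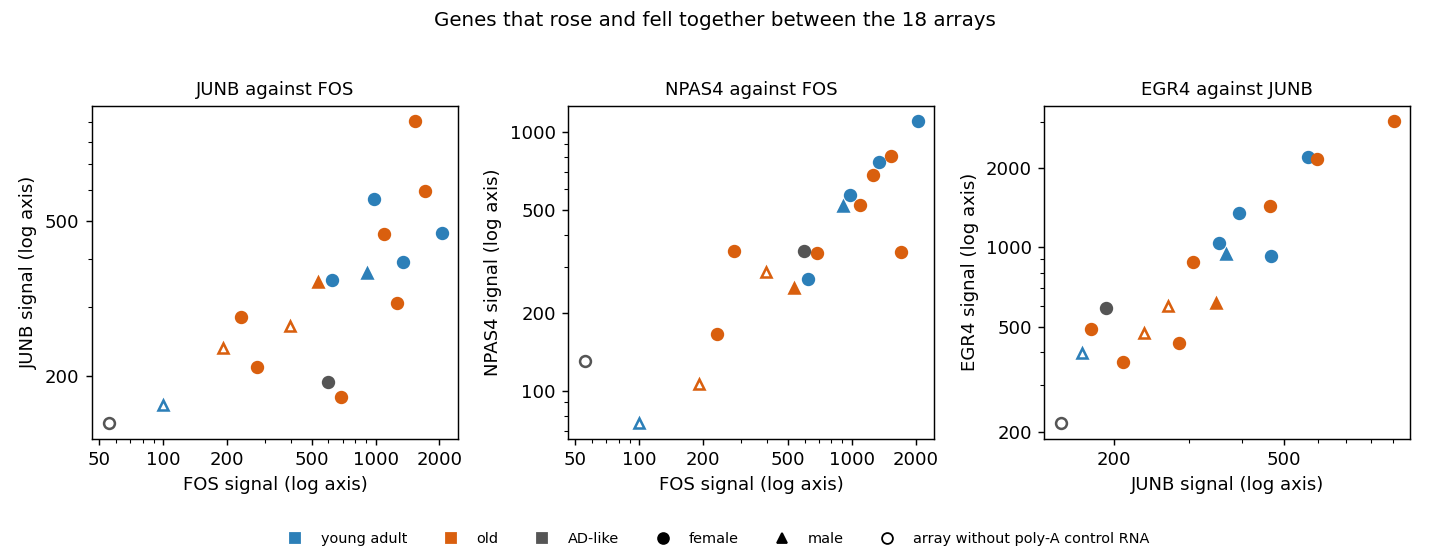
Signals (log axes) of JUNB against FOS, NPAS4 against FOS and EGR4 against JUNB in the 18 animals, with groups by colour, sex by shape and open symbols for the 4 arrays without poly-A control RNA. EGR4 follows JUNB closely over all animals (r = 0.92 after removing group means), and AD-like F2 is lowest for FOS, JUNB and EGR4.

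JUN was most like OBSL1 (r = 0.92), UBALD1 (r = 0.91) and ATG7 (r = 0.91), and EGR3 was most like RUNX1T1 (r = 0.97), the RNA-binding protein gene TARDBP (r = 0.94) and TIMM10 (r = 0.92). With quantile normalization the r of JUN with its 3 genes was 0.71, 0.35 and 0.44, and that of EGR3 was 0.73, 0.84 and 0.75. With quantile normalization of the 14 arrays it was 0.66, 0.067 and 0.28 for JUN and 0.73, 0.80 and 0.81 for EGR3. EGR1 was most like GPR37L1 (r = 0.85), CACNG2 (r = 0.84) and FBN1 (r = 0.81), with an r of 0.52, 0.36 and 0.73 in the 13 females and 0.71, 0.80 and 0.74 with quantile normalization. For JUNB the next were LUC7L (r = 0.90) and BTAF1 (r = 0.89). NR4A1 was most like NMB (r = 0.81), CST3 (r = 0.79) and CHDH (r = 0.78), and IER2 was most like KIF13A (r = 0.83), PCNX2 (r = 0.83) and RNF170 (r = 0.82). By the mean r over the 7 genes the highest were PDHA1 (0.49), NPAS4 (0.48), SCN8A (0.48), NFYC (0.47), TECR (0.47), PPP2R5D (0.47), LUC7L (0.47), EGR4 (0.47), MEIS1 (0.46) and MED23 (0.46), against a median of 0.02 over all genes. The 8 relatives of AP-1, EGR and NR4A had a median of 0.22 by this measure, the 27 other immediate early genes 0.12, the 24 upstream regulators 0.16, the 11 effectors 0.06 and the 7 heat shock genes 0.30. With quantile normalization these were 0.14, 0.11, 0.07, -0.01 and 0.21, against a median of -0.00031 over all genes.

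Several members moved with measures of the whole array. Over the 18 arrays, 11 of 28 relations between the 7 genes and 4 array measures had an adjusted p under 0.05, all with a negative r. Unlike for the pairs, group means were not removed here and animals were permuted over all groups, so differences between groups also enter each r. The measures were the number of probe sets at 100 or more, the median signal and the 3'/5' ratios of GAPDH and beta-actin. The first 2 both describe how bright an array is, so the 11 are not separate relations. The share of all kept probe sets that moved with these measures was not worked out, so the count does not set these genes apart. FOS was lower where the 3'/5' ratio of the beta-actin controls (log2) was higher (r = -0.83, rho = -0.79, permutation p = 4e-05, adjusted p = 0.000224). Without the 2 farthest arrays r was -0.77. With matching probes this ratio measures how far the RNA or its labelled copy is shortened. Here the probes are human, and the log2 ratio was below 0 on every array (-3.27 to -0.40), so it cannot be read so directly. With the GAPDH ratio FOS had r = -0.40 over the 18 arrays (permutation adjusted p = 0.18) and -0.82 within the 14 arrays with poly-A control RNA (adjusted p = 0.00274). JUN was lower where more probe sets had a signal of at least 100 (r = -0.86, rho = -0.88, permutation p = 1e-05, the smallest the resamples can give, adjusted p = 0.00014), and EGR3 likewise (r = -0.85, rho = -0.81, permutation p = 3e-05, adjusted p = 0.000224). Without the 2 farthest arrays r was -0.87 for JUN and -0.78 for EGR3. JUNB moved with beta-actin (r = -0.66, rho = -0.69, permutation p = 0.00297, adjusted p = 0.00924; r = -0.64 without the 2 farthest arrays), whereas EGR1, NR4A1 and IER2 had no relation that passed. Within the 14 arrays with poly-A control RNA 7 of 28 passed, FOS with beta-actin (r = -0.79, adjusted p = 0.00401), JUN with the number of probe sets (r = -0.81, adjusted p = 0.00274) and EGR3 with it (r = -0.81, adjusted p = 0.00266) among them. In these 14 arrays r for FOS was -0.43 without the 2 farthest arrays.

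**Figure D5:**
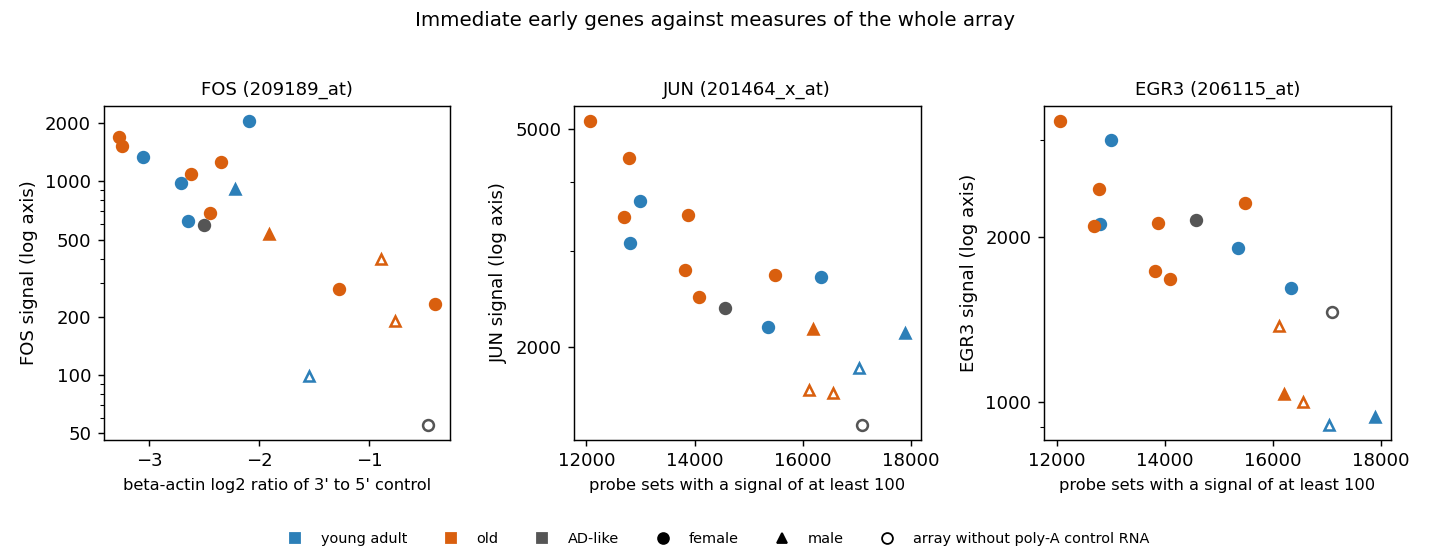
Signal (log axis) of FOS against the 3'/5' ratio of the beta-actin controls (log2), and of JUN and EGR3 against the count of bright probe sets (signal of 100 or more), for the 18 arrays; symbols show group, sex and poly-A control RNA. Each gene falls along its axis (r = -0.83, -0.86 and -0.85), and the 5 males have 16110 to 17887 such probe sets.

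The 4 arrays without poly-A control RNA were lower for FOS by a log2 of -2.20 (SE 0.50, limma adjusted p = 0.00833), for EGR1 by -1.61 (227404_s_at, adjusted p = 0.0134) and -1.15 (201694_s_at, adjusted p = 0.0335) and for JUN by -0.79 (201464_x_at, adjusted p = 0.0324), in a model with the 3 groups. These were 4 of the 11 probe sets, where 15.7% of all kept probe sets were called. Of these 4 arrays 3 were from males and 1 from an AD-like animal. What sets these arrays apart is not given in the sources used here, and its part in the results was not tested.

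Males and females were compared after the values had been seen, with sex beside the 3 groups. EGR3 and JUN, the latter by 2 of its 3 probe sets, were lower in males. EGR3 was 911 to 1379 in the 5 males and 1464 to 3252 in the 13 females, without overlap. Of all kept probe sets 0.199% were likewise lower in all males than in any female, and those higher in all males are not in this share. Its log2 difference was -1.03 (SE 0.21, limma adjusted p = 0.0128). JUN gave -1.36 (201465_s_at, SE 0.28, adjusted p = 0.0135) and -0.75 (201464_x_at, SE 0.22, adjusted p = 0.0354), but 0.05 by 213281_at (SE 0.29, adjusted p = 0.928). These were 3 of 11 probe sets, where 10.7% of all kept probe sets were called. FOS gave -1.40 (SE 0.57, adjusted p = 0.109). Without old M2 the differences were -1.004 for EGR3 (adjusted p = 0.0511), -1.14 for JUN 201465_s_at (adjusted p = 0.0576) and -0.69 for JUN 201464_x_at (adjusted p = 0.107), so that no call was left, where 0.515% of all kept probe sets were called. The call of JUN 201464_x_at was also lost without any of young adult F1, F2 and M2 and old F1, F2, F3 and M1, with adjusted p from 0.0508 to 0.0953. Over all fits that left out 1 animal the difference ran from -0.82 to -0.69 for JUN 201464_x_at, from -1.57 to -1.14 for JUN 201465_s_at and from -1.13 to -0.97 for EGR3. Among the old animals alone, EGR3 and both of these JUN probe sets were lower in all males than in any female. These were 3 of 11 probe sets, against 5.49% of all kept probe sets in this direction. Males were also the animals with many bright probe sets, 16110 to 17887 at a signal of 100 or more against 12060 to 17101 in females, and the part of array brightness in these differences was not tested. With quantile normalization JUN kept its call by 201465_s_at (-1.36, adjusted p = 0.02) and not by 201464_x_at (-0.11, adjusted p = 0.783), and EGR3 gave -0.52 (adjusted p = 0.1), where 3.14% of all kept probe sets were called. With the poly-A arrays as a block EGR3 gave -0.98 (adjusted p = 0.156) and JUN -1.22 (201465_s_at, adjusted p = 0.18), and within the 14 arrays they gave -1.10 (adjusted p = 0.137) and -1.36 (adjusted p = 0.12), where 0.0481% and 0.281% of all kept probe sets were called. The test of a difference in the age contrast between sexes called none of the 11 after adjustment (smallest p for JUN 201465_s_at, limma p = 0.0235, adjusted p = 0.981). Of the lists, limma called 1 of 8 relatives, 1 of 27 other immediate early genes and 4 of 24 upstream regulators. It called 2 of 7 heat shock genes and 0 of 11 effectors. These were 8 of 77 list genes, a share near the 10.7% of all kept probe sets called. NR4A3 (-1.51, adjusted p = 0.0425), HOMER1 (-0.94, adjusted p = 0.0337), MAPK8 (-1.13, adjusted p = 0.0192) and HSP90AA1 (-1.42, adjusted p = 0.0141) were lower in males. Of the 8 list genes called, none was called with quantile normalization, with the poly-A block, within the 14 arrays or without old M2. With the poly-A block NR4A3 gave -1.18 (adjusted p = 0.354), HOMER1 -0.75 (adjusted p = 0.315), MAPK8 -1.50 (adjusted p = 0.121) and HSP90AA1 -1.06 (adjusted p = 0.233).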

How the data were processed

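RNA from the temporal cortex of 18 animals was hybridized to 18 arrays. The authors made the intensity values with GCOS 1.2, per the submitters' processing notes, and the deposited signals are linear and scaled for each array. No detection call entered a step. Gene symbols came from the platform annotation, where 12435 of the 14567 kept probe sets carry 1 symbol, 576 several and 1556 none.

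Signals were taken as log2(signal + 16) and fitted in limma 3.58.1 (R 4.3.3) with the 3 groups on all 18 arrays, with Benjamini-Hochberg adjustment over all kept probe sets and a threshold of 0.05. Log2 differences of low signals are understated by the offset. A common variance was shared by the 3 groups, the AD-like pair included, and the small number of arrays limits the precision. The methods' t-test and analysis of variance were run on linear signals. Pairs of genes and array measures were tested with two-sided permutation tests of 100000 resamples (numpy 2.4.6, scipy 1.17.1), permuting animals within groups for the pairs. The scripts were tested on simulated data.

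Named are all member probe sets, up to 3 genes with the smallest p of each list and comparison, the 3 genes most like each member and the 10 with the highest mean r; HSP90AA1, MAPK8, HOMER1 and NR4A3 are those with the smallest p of their list between sexes. The members and lists were chosen with earlier results of these data known. Alternatives covered offset, normalization, filter, variance model, sex, presence of poly-A control RNA and single animals. The highest Spearman correlation between arrays was 0.778, and none of the arrays was a copy of another. No sequence or genome position is given.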

Additional observations from a re-analysis of the deposited data

Results flagged for a closer look

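Of 32 groups of animals checked over the 16 probe sets of immediate early genes, 3 held an animal far from the rest of its group, where chance gives about 1 in 20 groups. The EGR1 signal (201694_s_at) of young adult M2 was 1008, and the next young adult was at 4173, a gap of 0.732 of the range of the group in log2(signal + 16), the scale used for this check. In linear signals the gap was 0.528, under the critical value for 6 animals. The array of this animal was 1 of the 4 without poly-A control RNA. FOSB (202768_at) was 95.3 in old M3, against 29.6 in the next old animal (gap 0.521 of the log2 range, 0.72 of the linear range). NR4A1 (211143_x_at) was 58.0 in young adult F4, against 23.3 in the next young adult (gap 0.649 of the log2 range, 0.753 of the linear range). Neither of the latter probe sets passed the filter on low signals.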

How the results depend on the processing

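Between groups no immediate early gene passed after adjustment in any of 33 alternatives for any comparison. The comparison of sexes, sex removed from the pairs, quantile normalization of the poly-A arrays, array measures within the poly-A arrays, the alternatives for single list genes and the linear scale for animals far from their group were chosen after seeing the data. Counts with an unadjusted p under 0.05 moved from 0. They are given with the share of all kept probe sets in the same fit, apart from most ranges over single animals left out. In those ranges the share was 4.29% without old F5 for AD-like against old animals (count 1). It was 5.35% without young adult M2 for the F test (count 1). For old against young adult animals the count was 1 with the replicate block (6.75%) and 1 with the GAPDH covariate (6.27%). For AD-like against old animals it was 1 with quantile normalization (5.7%), 3 with sex as a covariate (11%), 2 in females only (12%), 4 with the replicate block (15.5%), 1 with the GAPDH covariate (5.32%) and 0 to 1 leaving out single animals. For AD-like against young adult animals it was 1 with quantile normalization (5.93%), 2 with a mean-variance trend (4.23%), 1 with array weights (3.73%), 3 with sex (8.21%), 4 in females (8.35%), 3 with the replicate block (12.7%), 1 in poly-A arrays only (4.74%) and 0 to 3 leaving out single animals (3 without young adult M2, 5.62%). For the F test it was 1 with sex (9.82%), 1 in females (8.66%), 4 with the replicate block (12.1%) and 0 to 1 leaving out single animals. Animals with the same replicate label share sex, so the replicate block also removes sex, and no label says that they are paired. Deviations of same-labelled young adult and old animals correlated above 0.1 in 5 of 6 pairs, and 1 of 6 young adults correlated best with its own label. How often animals with different labels correlated above 0.1 is not given here.

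Directions that reversed, none past the adjusted threshold, were these. With the GAPDH covariate, old minus young adult was 0.019 for EGR1 (201694_s_at), 0.10 for FOS, 0.041 for IER2 and 0.12 for JUNB, and AD-like minus young adult was 0.047 for EGR1 (201693_s_at). With the beta-actin covariate, these were 0.14, 0.26 and 0.094 for EGR1 (201694_s_at), FOS and JUNB and 0.13 for EGR1 (201693_s_at), and AD-like minus old was 0.13 for EGR3 and 0.082 for JUN (201465_s_at). With quantile normalization, old minus young adult was -0.080 for EGR3 and -0.16 for JUN (201464_x_at), AD-like minus old was 0.27 for EGR3, and AD-like minus young adult was 0.050 for EGR1 (201693_s_at). With the poly-A block, AD-like minus old was 0.22 for both EGR3 and JUN (201465_s_at). In poly-A arrays only it was 0.11 and 0.023 for these, AD-like minus young adult was 0.23 for JUN (213281_at), and old minus young adult was -0.031 for NR4A1. EGR3 in AD-like minus young adult was -0.038 with array weights, -0.25 in females, -0.20 with sex and -0.39 with the replicate block. With the replicate block, old minus young adult was 0.16 for JUNB and -0.16 for NR4A1. Quantile normalization of poly-A arrays gave r of -0.13 for FOS and EGR3 and -0.0073 for FOS and JUN.

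Leaving out single animals, old minus young adult ran from -0.32 to 0.019 for JUNB, -0.53 to 0.021 and -0.68 to 0.034 for EGR1 (201694_s_at and 227404_s_at), -0.25 to 0.045 for IER2, -0.00094 to 0.34 for EGR3, -0.83 to 0.0055 for FOS and -0.13 to 0.26 for NR4A1. AD-like minus old ran from -0.56 to 0.35 for JUN (201465_s_at), -1.25 to 0.048 for EGR1 (201694_s_at) and -0.29 to 0.26 for EGR3. AD-like minus young adult ran from -0.19 to 0.091 for EGR1 (201693_s_at), -0.13 to 0.42 for EGR3 and -0.53 to 0.10 for JUN (213281_at).

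Of the 21 pairs 7 passed. The count was 1 with quantile normalization, 1 in poly-A arrays only, 2 with the poly-A block removed, 1 in females and 1 in old animals. It was 1 with quantile normalization of poly-A arrays, 1 with sex removed and 1 to 8 leaving out single animals (1 without young adult M2). Of the 42 ordered pairs 7 passed, and 4 did with an offset of 1, 0 with quantile normalization, 2 without the filter, 0 in poly-A arrays only, 0 with sex and 2 to 8 leaving out single animals. Of 28 relations to array measures 11 passed, and 7 in poly-A arrays only. Between sexes 3 probe sets passed, and 1 with quantile normalization, 0 with the poly-A block, 0 in poly-A arrays only and 0 to 4 leaving out single animals. The causes of these changes were not tested. The 2 AD-like animals, 18 arrays and human probes limit what could be detected, and low signals are understated by the offset.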
